A study of Arabidopsis thaliana with 69 samples.

Results

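The set described here is the miRNA-directed cleavage products of Arabidopsis thaliana embryos between the preglobular and globular stages. They were read from nanoPARE, which sequences the 5′ ends of RNA molecules and so records the cut end that is left on the downstream fragment after a miRNA has directed cleavage of its target. A member is a position in a target transcript that the tool EndCut listed in at least 1 of 6 libraries with an Allen score of 4 or less. The Allen score is a penalty for imperfect pairing between miRNA and target, with 0 for a perfect match. The rule found 111 sites in 105 genes, of 219 sites found by the same rule in all 27 embryo nanoPARE libraries. A site that a library did not list was given 0 RPM, where RPM is the number of reads scaled to a common library size.

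All 6 libraries were made from wild-type Col-0 embryos of plants grown under the same chamber conditions. The preglobular group held 3 libraries of embryos with 8 or 16 cells, and the globular group held 3 libraries of globular embryos. The methods describe each library as a pool of embryos taken from other plants on another day. Each value is thus an average over whole embryos, and a lower number of cells that hold a product could not be told apart from less product per cell. Wild-type transcript levels were not analysed here, so a change in the amount of a target transcript and a change in the share of it that was cut cannot be told apart either. The miRNA-deficient dcl1-5 mutant, which lacks the enzyme that releases miRNAs from their precursors, was sampled at the globular stage in 3 further libraries of embryos that were picked by their abnormal form. They serve here as the background of the method.

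Plant miRNAs pair with their targets along nearly their whole length, and ARGONAUTE1 cuts the target between the bases that face miRNA bases 10 and 11. Many conserved targets encode transcription factors that pattern the embryo, among them the HAIRY MERISTEM (HAM) proteins of the GRAS family, the class III homeodomain-leucine zipper (HD-ZIP III) proteins, the AUXIN RESPONSE FACTORs (ARFs) and the SQUAMOSA PROMOTER BINDING PROTEIN-LIKE (SPL) proteins. TAS transcripts are non-coding, and their cut fragments are turned into secondary small RNAs called tasiRNAs. AGO2 is itself an ARGONAUTE, and its transcript is a target of miR403.

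Some of the sites with high levels are shown with their guides, and those of REV and PHV beside that of PHB. The later comparisons turn on which of them share a guide. Sequences are from the RefSeq annotation of TAIR10.1, read 5′ to 3′ and written with T. In a miRNA the capitals mark the seed, bases 2 to 8, and in a target the capitals mark the bases on either side of the cut.
miR171a-3p: tGATTGAGccgcgccaatatc
HAM1 and HAM2 site: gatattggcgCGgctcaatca
miR173-5p: tTCGCTTGcagagagaaatcac
TAS1A and TAS1C site: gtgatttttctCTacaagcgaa
TAS2 site: gtgatttttctCTccaagcgaa
miR160a-5p: tGCCTGGCtccctgtatgcca
ARF10 site: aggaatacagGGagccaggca
ARF17 site: tggcatgcagGGagccaggca
miR403-3p: tTAGATTCacgcacaaactcg
AGO2 site: ggagtttgtgCGtgaatctaa
miR165a-3p: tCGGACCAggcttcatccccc
REV site: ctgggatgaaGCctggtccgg
PHB and PHV site: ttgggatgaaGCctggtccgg
The HAM1 and HAM2 sites are the same 21 bases and pair with miR171a-3p at all 21. The 3 TAS sites each form 20 Watson-Crick pairs and 1 wobble pair over 22 bases with miR173-5p, and each was given an Allen score of 2.5. The ARF17 site scored 0.5 and the ARF10 site 2, although both are cut by the same miRNA.

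The HAM1 site lies on the minus strand at chr2:18619128-18619148 (TAIR10.1), in the coding sequence of a gene with 1 exon (AT2G45160), and the HAM2 site lies at chr3:22411544-22411564 in AT3G60630, also in the coding sequence of its 1 exon. The TAS1C (AT2G39675), TAS1A (AT2G27400) and TAS2 (AT2G39681) sites are in non-coding transcripts of chromosome 2, at chr2:16537890-16537911, chr2:11722081-11722102 and chr2:16539991-16540012. The ARF10 site is in exon 2 of 4 of AT2G28350 at chr2:12115741-12115761, the ARF17 site in exon 2 of 3 of AT1G77850 at chr1:29274189-29274209, and both are coding. The AGO2 site is in the 3′ UTR of AT1G31280, at chr1:11185223-11185243. All 5 HD-ZIP III sites of the set span an exon junction, so their target sequence exists only in spliced RNA. Of the 111 sites, 84 could be placed on a RefSeq transcript with a score within 1 of the deposited one. Of these, 74 were in coding sequence, 7 in a 3′ UTR and 3 in non-coding RNA, and the last 3, the TAS sites, held 59.3% of the level summed over placed sites.

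Cleavage products summed over all genes came to 60.2, 52.8 and 31.9 RPM in preglobular replicates 1, 2 and 3. They came to 105 (replicate 1), 83.9 (replicate 2) and 60.2 RPM (replicate 3) in the globular libraries. The globular libraries were the higher ones, but the highest preglobular and the lowest globular library lay together at 60.2 RPM. The means were 48.3 ± 14.7 (SD, n = 3) and 83.2 ± 22.6 RPM (SD, n = 3), a ratio of 1.72 (two-sided exact permutation test, p = 0.1, the smallest that 3 against 3 libraries allow). The ratio was 3.48 for sites with a score of 2 or less and 2.73 without the 3 TAS genes. When genes with the same value in every library were counted once, it was 1.72 and the stages overlapped (exact permutation test, p = 0.2). The dcl1-5 globular libraries, measured the same way, summed to 4.89, 3.49 and 1.53 RPM, so that wild-type globular embryos held 25.2 times and preglobular embryos 14.6 times the mean of the mutant.

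The number of listed sites was 37, 38 and 24 in the preglobular libraries and 39, 57 and 46 in the globular ones. EndCut itself called 16, 15 and 12 sites in the preglobular and 19, 26 and 24 in the globular libraries at its adjusted p under 0.05, against 4, 2 and 2 in dcl1-5. Both counts were higher in every globular library than in any preglobular one, with ratios of the means of 1.43 and 1.60 (exact permutation test, p = 0.1 for each). With a score of 2 or less required, the ratios were 1.14 (p = 0.7) and 1.15 (p = 0.6 by the exact permutation test), and the stages overlapped. The unit of the values also differed between the stages. The deposited values are whole multiples of a small step that is particular to each library, 0.00153 to 0.00171 RPM in the preglobular and 0.00109 to 0.00135 RPM in the globular libraries. If a step stands for the same share of a read throughout, the globular libraries were 1.27 to 1.57 times and the other preglobular libraries 1.09 to 1.12 times as deep as preglobular replicate 1. With sites under 0.2 RPM left out, a limit chosen after seeing the data, the ratio of the number of sites was 1.37 and the stages overlapped (exact permutation test, p = 0.3). With sites under 1 RPM left out it was 1.79, from 6.33 to 11.3 sites on average, without overlap (exact permutation test, p = 0.1). The part of depth in the number of listed sites was not tested further.

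**Figure D1:**
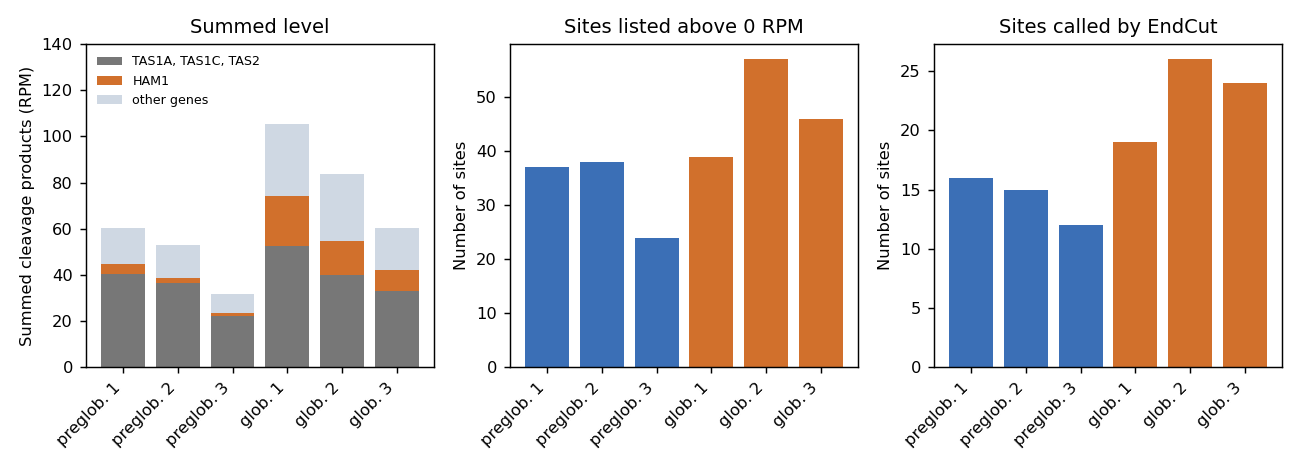
Summed cleavage products in RPM (left, split into TAS transcripts, HAM1 and other genes), number of sites listed above 0 RPM (middle) and number of sites called by EndCut (right), 1 bar for each library. TAS products made up 67.2% to 70.3% of the preglobular sums and 47.6% to 55.2% of the globular sums, and HAM1 made up 3.81% to 7.40% and then 14.7% to 20.3%.

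Few sites carried most of the level. The 10 genes with the highest mean held 83.8% to 87.1% of the sum in every library, whereas 58 of the 111 sites were listed in 1 library of 6 and 9 sites in all 6. Sites seen in both stages numbered 42, of 64 seen in any preglobular and 89 seen in any globular library. EndCut called 11 sites in at least 2 preglobular libraries and 19 in at least 2 globular libraries, and 9 of these were the same sites. Sites with a score of 1 or less numbered 17, and all 17 were called by EndCut in at least 1 library. Sites with a score of 3.5 or 4 numbered 59, of which 6 were called, and they held 7.95% of the summed level. Just inside the limit, the 43 sites with a score of 4 had a median of 0.0356 RPM and a highest mean of 0.743 RPM. Just outside it, the 86 sites with a score of 4.5 had a median of 0.0590 and a highest mean of 6.39 RPM.

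HAM1, a GRAS-family transcription factor that keeps shoot meristem cells undifferentiated, was the 1 target gene that passed the test between the stages. Its products stood at 4.45, 2.01 and 1.27 RPM in preglobular replicates 1, 2 and 3 and at 21.4, 14.7 and 8.87 RPM in the globular replicates. The lowest globular library was above the highest preglobular one. The means were 2.58 ± 1.66 (SD, n = 3) and 14.996 ± 6.25 RPM (SD, n = 3), a 5.82-fold difference. On the log2(RPM + 1) scale HAM1 rose by 2.18 (SE 0.45, limma adjusted p = 0.000111 over 50 genes tested), and the site alone gave an adjusted p of 0.000239 over 53 sites tested. It was the 1 gene of 50 to pass in this direction (2%) and the 1 site of 53 (1.89%), and none passed in the other (0%). At an unadjusted p under 0.05, limma gave 5 genes and 6 sites higher in globular embryos and 0 lower. EndCut called the HAM1 site in all 6 libraries, and its products were listed at 0 in the 3 dcl1-5 libraries.

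The call depended on how the spread was shared between genes. With a single prior spread for all genes in place of one that follows the mean level, the adjusted p of HAM1 was 0.0805 and no gene passed. Without globular replicate 2 the HAM1 site, tested among sites, had an adjusted p of 0.168, and the same levels tested among genes gave 0.00944.

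HAM2, a second GRAS-family factor, carries the same site. Its products stood at 2.62, 1.03 and 0.478 RPM in the preglobular and at 2.84, 5.57 and 2.46 RPM in the globular libraries. Preglobular replicate 1 was above globular replicate 3, so that the stages overlapped. The means were 1.38 ± 1.11 and 3.62 ± 1.70 RPM (SD, n = 3 each), and the difference of 1.00 on the log2(RPM + 1) scale (SE 0.42) did not pass (limma adjusted p = 0.250). Among the 9 genes with a mean of at least 1 RPM it did (limma adjusted p = 0.0498). The ratio of HAM1 to HAM2 products was 1.70, 1.95 and 2.66 in the preglobular libraries and 7.53, 2.65 and 3.61 in the globular ones. The ratio was higher in globular embryos by 1.01 on the log2 scale, with overlap between the stages (two-sided exact permutation test, p = 0.2, 0.4 after adjustment over the 4 ratios compared). A difference in change between these genes was therefore not resolved.

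**Figure D2:**
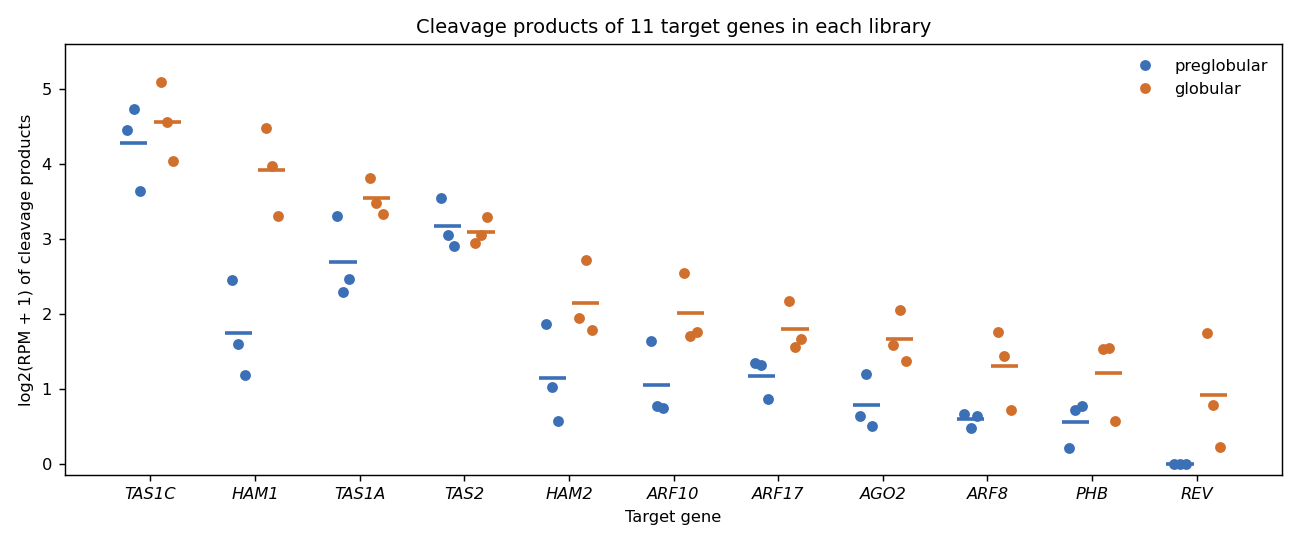
Cleavage products as log2(RPM + 1) in each library for the 10 target genes with the highest mean and REV, with preglobular libraries in blue, globular libraries in orange and a line at each mean. HAM1 shows the widest gap between the stages, TAS2 lies at the same height in both, and REV was listed at 0 in the 3 preglobular libraries.

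The TAS transcripts cut by miR173 were the largest source of products in both stages, and none of the 3 passed the test. TAS1C stood at 20.9, 25.5 and 11.4 RPM in the preglobular and at 33.0, 22.5 and 15.5 RPM in the globular libraries. The stages overlapped (difference 0.29 on the log2(RPM + 1) scale, SE 0.39, limma adjusted p = 0.775). TAS2, whose tasiRNAs target pentatricopeptide repeat transcripts, stood at 10.7, 7.31 and 6.51 RPM and then at 6.67, 7.28 and 8.75 RPM. Its means of 8.16 ± 2.20 and 7.57 ± 1.07 RPM (SD, n = 3 each) differed by -0.08 on the log2(RPM + 1) scale (SE 0.44, limma adjusted p = 0.971), and TAS2 was the sole gene among the 10 with the highest mean whose value was lower in globular embryos. TAS1A stood at 8.83, 3.88 and 4.53 RPM and then at 13.1, 10.13 and 9.05 RPM, without overlap, and the difference of 0.86 on the log2(RPM + 1) scale (SE 0.44) did not pass (limma adjusted p = 0.356).

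The 3 TAS transcripts share a guide, and ratios within a library do not depend on how that library was scaled. TAS1A products were 0.829, 0.531 and 0.696 times those of TAS2 in the preglobular libraries and 1.96, 1.39 and 1.03 times in the globular libraries. The 2 sets of ratios did not overlap, and the log2 ratio was 1.07 higher in globular embryos (two-sided exact permutation test, p = 0.1, the smallest possible, 0.4 after adjustment over 4 ratios). TAS1C to TAS2 ratios ran from 1.75 to 3.49 and from 1.77 to 4.95, with overlap (p = 0.6 by the exact permutation test).

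Across the 50 genes tested, 9 (18%) had globular libraries that were all above the preglobular ones, and 0 (0%) had the reverse. For sites these numbers were 7 (13.2%) and 0 (0%) of 53, and 32 of the 53 sites (60.4%) had a higher mean of log2(RPM + 1) in globular embryos. The 9 genes were HAM1, TAS1A, ARF10, ARF17, AGO2, ARF8, REV, PHV and AT1G63130, and only HAM1 passed the test. Among genes, such a higher mean was found for 32 of the 50 (64%), and the median difference over all 50 was 0.12. Of the 50, 6 were at 0 in every preglobular library and 2 in every globular library, so that their direction was fixed by the libraries that brought them into the test. When each library was scaled to the same summed level, this median became 0.01 and HAM1 stayed higher by 1.56 on the log2(RPM + 1) scale.

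**Figure D3:**
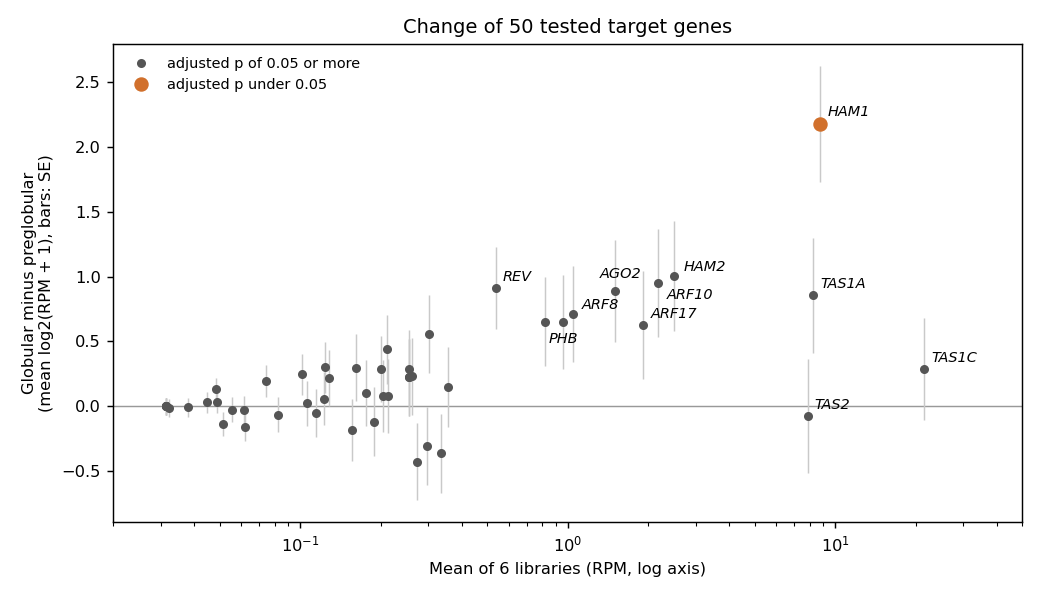
Difference between globular and preglobular embryos on the log2(RPM + 1) scale with its SE for the 50 genes tested, against the mean level of 6 libraries on a log axis. HAM1 at 2.18 is the 1 gene past the threshold, and genes under 0.2 RPM lie close to 0, where the added 1 RPM compresses differences.

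ARF10, ARF16 and ARF17 encode repressing ARFs that miR160 controls. ARF10 products stood at 2.11, 0.704 and 0.677 RPM in the preglobular and at 4.85, 2.27 and 2.38 RPM in the globular libraries. These values did not overlap, and the difference of 0.95 on the log2(RPM + 1) scale (SE 0.42) did not pass over all genes tested (limma adjusted p = 0.250) but did among the 9 genes with a mean of at least 1 RPM (0.0498). ARF17 stood at 1.54, 1.497 and 0.809 RPM and then at 3.51, 1.95 and 2.18 RPM, again without overlap and without a call (difference 0.63, SE 0.41, limma adjusted p = 0.367). ARF10 to ARF17 ratios were 0.470 to 1.37 in the preglobular and 1.09 to 1.38 in the globular libraries, and they overlapped (p = 0.3 by the exact permutation test). No ARF16 site was listed in the 6 libraries under the rule.

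ARF8, an activating ARF cut by miR167, stood at 0.581, 0.383 and 0.560 RPM and then at 2.38, 1.69 and 0.645 RPM. The globular libraries were all higher, with globular replicate 3 close to the preglobular range (limma adjusted p = 0.356). Its products were listed at neighbouring positions that differ by 1 base, one assigned to miR167a-5p and the other to miR167c-5p, and no library listed both. The miR167a-5p position stood at 0, 0.383 and 0 RPM and then at 2.38, 1.69 and 0 RPM. The miR167c-5p position stood at 0.581, 0 and 0.560 RPM and then at 0, 0 and 0.645 RPM. At each position alone the stages overlapped, and EndCut called neither in a preglobular library. Without globular replicate 3, where it was at 0, the miR167a-5p position alone passed among sites (limma adjusted p = 0.00793), whereas the sum for the gene did not. Preglobular libraries at 0 for that position stayed in the fit, so the omission favoured a higher globular value. AGO2 stood at 0.558, 1.28 and 0.412 RPM and then at 2.00, 3.12 and 1.59 RPM. The globular AGO2 libraries were all higher (difference 0.89 on the log2(RPM + 1) scale, SE 0.39, limma adjusted p = 0.250), and EndCut called the site in all 6 libraries.

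The HD-ZIP III genes, which set the adaxial and apical domains of the embryo and are cut by miR165 and miR166, were listed in differing sets of libraries. REV was listed at 0 in every preglobular library and at 2.34, 0.722 and 0.160 RPM in the globular ones. The 3 globular values spread widely, and the difference of 0.91 on the log2(RPM + 1) scale (SE 0.32) did not pass (limma adjusted p = 0.106). REV entered the test through its globular libraries alone, so some difference was built in by the filter. Its value rested on single libraries, with a difference of 1.26 (adjusted p = 0.0142) without globular replicate 3 and of 0.50 (adjusted p = 0.514) without globular replicate 1. EndCut called the REV site in 3 globular and 0 preglobular libraries. PHB stood at 0.156, 0.636 and 0.696 RPM and then at 1.87, 1.92 and 0.482 RPM, with globular replicate 3 inside the preglobular range (limma adjusted p = 0.367). PHV stood at 0.147, 0 and 0 RPM and then at 0.844, 0.305 and 0.520 RPM (limma adjusted p = 0.367). HB8 was listed in preglobular replicate 1 alone, at 0.536 RPM, and CNA in globular replicate 2 alone, at 0.108 RPM. Of the 5 genes of this class, all 5 were listed, 3 were tested and 0 passed.

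SPL genes, which time developmental transitions and are cut by miR156 and miR157, had 0 RPM in at least 1 library of each stage. SPL2 stood at 0, 0.322 and 0.577 RPM in the preglobular and at 2.95, 1.05 and 0 RPM in the globular libraries, so that each stage had a library at 0 (limma adjusted p = 0.356). Without globular replicate 3, the one at 0, SPL2 passed, with a difference of 1.16 on the log2(RPM + 1) scale (SE 0.38, limma adjusted p = 0.0447). The preglobular library at 0 stayed in that fit, so this omission favoured a higher globular value. SPL15 went the other way, with 0.418, 1.16 and 0 RPM and then 0.438, 0 and 0 RPM (limma adjusted p = 0.581). SPL10 was listed at 0.137 RPM in preglobular replicate 1 and at 1.07 RPM in globular replicate 3. SPL6, SPL11, SPL13A and SPL13B were listed in globular replicate 2 alone, at 0.0675 to 0.133 RPM, and the SPL13A and SPL13B values are equal in every library. Of 11 SPL genes, 7 were listed, 3 tested and 0 passed.

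The remaining transcription factor targets were near the lower end of the levels. GRF2, a growth-regulating factor whose site was assigned to miR396, stood at 0, 0.376 and 0 RPM and then at 0.742, 0.315 and 0.0943 RPM. GRF3 stood at 0.570, 0.144 and 0 RPM and then at 0, 0.222 and 0 RPM. EndCut called the GRF2 and GRF3 sites in none of the 6 libraries. GRF2 was also listed in dcl1-5 replicates 1 and 2, at 0.133 and 0.164 RPM. The miR159 site of MYB65, a GAMYB-type factor, stood at 0.171, 0.306 and 0 RPM and then at 0.620, 0.297 and 0 RPM, and a neighbouring position assigned to miR319 was listed in globular replicate 3 alone at 0.172 RPM. CUC2, a NAC factor that separates the cotyledons, was listed at 0 in the preglobular libraries and at 0, 0.446 and 0.294 RPM in the globular ones, and CUC1 in globular replicate 2 alone at 0.258 RPM. TCP24 was listed in globular replicate 1 alone at 1.05 RPM, TCP3 in globular replicate 3 alone at 0.444 RPM, and TCP4 in preglobular replicate 2 alone at 0.260 RPM. LCR, an F-box gene cut by miR394, was listed at 0, 0 and 0 RPM and then at 0, 0.216 and 1.05 RPM, and CMT3, a DNA methyltransferase gene cut by miR823, at 0, 0.383 and 0 RPM and then at 0, 0.603 and 0.0673 RPM. In each of these genes the stages overlapped, and none that was tested passed.

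Of 89 genes in lists of miRNA targets, 37 were listed in at least 1 of the 6 libraries, 24 were tested and 1 passed (HAM1). Of the 24, 21 had a higher mean in globular embryos. Their median difference was 0.37 on the log2(RPM + 1) scale, against 0.12 over all genes tested. Of those 24, 3 (REV, LCR and CUC2) were at 0 in every preglobular library and so could only be higher. The 37 listed genes held 92.4% of the summed level, and TAS1A, TAS1C and TAS2 alone held 57.2%. DCL1 was counted among the 37, although its site here was assigned to miR775 and not to a guide of its list. The 68 other genes held 7.59%, and of the 26 tested among them 11 had a higher mean in globular embryos, 0 passed, and the median difference was 0.00. The lists of AP2 (6 genes, miR172), auxin receptor F-box (4 genes, miR393), copper protein (3 genes, miR398), flavonol MYB (4 genes, miR858), laccase (3 genes, miR397), NF-YA (7 genes, miR169) and nutrient genes (5 genes, miR395 and miR399) had no member listed. Among the other genes were pentatricopeptide repeat genes cut by miR161, of which AT1G62910 and RPF3 had the same value in every library, at 0.130, 0.330 and 0 RPM and then 0.465, 0.0442 and 0.562 RPM. In all, 14 sites fell into 6 groups whose members had the same value in each of the 6 libraries, and reads of near-identical genes may have been counted for each. Counting them once left HAM1 as the 1 gene that passed.

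The level of the guides was read from small RNA libraries of the same stages, which the methods describe as made from the same RNA pools as the nanoPARE libraries. The guides of the most abundant products were themselves at low levels, with 0 RPM in most preglobular libraries. miR170/miR171 was at 0 RPM in the 3 preglobular libraries, where 3 reads would have been 0.292, 0.500 and 1.46 RPM. It stood at 4.77, 4.31 and 2.27 RPM in the globular libraries, where 3 reads would have been 0.186, 0.172 and 0.0573 RPM. Measured against those 3-read limits, the globular libraries were all above the highest of the preglobular limits. This holds for the family as a whole. Its member miR171a-3p, shown above with the HAM1 and HAM2 sites, was at 2.17, 0.287 and 0 RPM in the globular libraries. Those values overlapped its preglobular values of 0 RPM. miR173 was at 0, 0 and 5.85 RPM in the preglobular and at 0, 0 and 2.06 RPM in the globular libraries, although the TAS products it guides were the most abundant ones in all 6. miR160 was at 3.12, 0 and 0 RPM and then at 3.41, 2.24 and 9.28 RPM, and miR167 at 0 in every preglobular library and at 1.11, 9.02 and 1.26 RPM in the globular ones. None of these 4 families reached the mean of 10 RPM set for testing. With that minimum lowered to 1 RPM, miR170/miR171 was among the families that passed, with a difference of 2.22 on the log2(RPM + 1) scale (SE 0.55, limma adjusted p = 0.0385 over 69 families). It entered that fit through its globular libraries alone, so it could only come out higher. With no minimum, over 120 families, it did not pass.

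Other guides ranged widely. miR161.2, at 0 and 0.732 RPM on average in the 2 stages, and miR773, at 0.865 and 1.38 RPM, were also near 0, whereas the families that follow stood far higher. miR156/miR157 was at 4131, 2990 and 3905 RPM in the preglobular and at 1694, 2788 and 4651 RPM in the globular libraries, with overlap (difference -0.38 on the log2(RPM + 1) scale, SE 0.40, limma adjusted p = 0.633 over 29 families). miR165/miR166 was at 646, 215 and 396.4 RPM and then at 653, 601 and 907 RPM (difference 0.89, SE 0.49, limma adjusted p = 0.354), and its sites summed to 0.724 and 3.09 RPM on average. miR403, the guide of AGO2, was at 130, 52.8 and 140 RPM and then at 148, 178 and 261 RPM (difference 0.94, SE 0.56, limma adjusted p = 0.396). Of the 29 families tested, 2 passed as higher (6.9%), miR390-3p and miR5024-3p, and 2 as lower (6.9%), miR3440-3p and miR831-3p. Both higher families reached the minimum of 10 RPM through their globular mean alone, so their entry favoured a higher value. In the preglobular and globular libraries miR390-3p had means of 3.47 and 56.4 RPM, and miR5024-3p of 6.19 and 29.4 RPM. Both lower families were above the minimum in each stage. Of the families that passed, miR390-3p and miR831-3p guided sites of the set, which summed to at most 0.0310 and 0.137 RPM on average in a stage. Of 44 guide families of the sites, 13 were at 0 RPM in all 3 preglobular small RNA libraries, miR170/miR171 and miR167 among them. Some of the 13, such as miR823 and miR824, were at 0 RPM in the globular libraries too. The preglobular small RNA libraries were also less deep, with 2050780 to 10268500 genome-matching reads against 16145300 to 52374397. For miR167, the globular values of 1.11 and 1.26 RPM lay below the 3-read limit of preglobular replicate 3, 1.46 RPM.

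**Figure D4:**
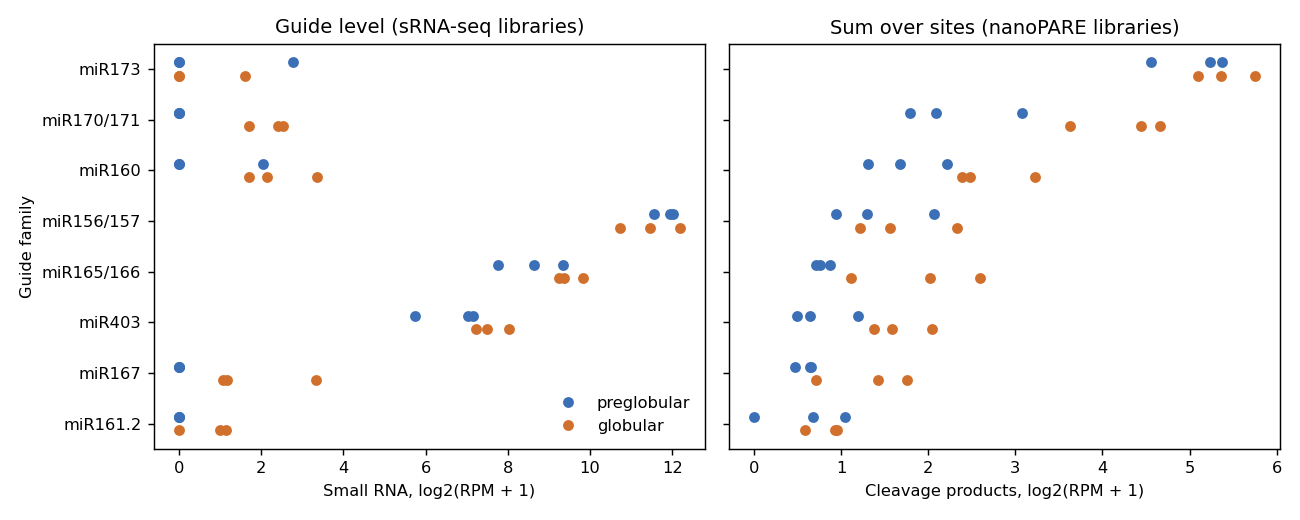
Level of 8 guide families in the small RNA libraries (left) and summed level of their cleavage sites in the nanoPARE libraries (right), as log2(RPM + 1), 1 point for each library, with families ordered by the summed level of their sites. miR173 and miR170/miR171 lie at the top on the right and at 0 to 5.85 RPM on the left. By contrast, miR156/miR157 lies at 1694 to 4651 RPM on the left.

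Over the 8 wild-type stages, HAM1 products were lowest in preglobular embryos. The 3 preglobular libraries held 1.27 to 4.45 RPM, and the libraries of the 7 later stages held 7.32 to 40.6 RPM, with the highest mean, 28.3 RPM, at late heart and 26.7 RPM at early heart. Globular embryos were sixth from the lowest of the 8 stages for HAM1, and their range of 8.87 to 21.4 RPM overlapped those of every later stage except early heart, whose lowest library held 22.9 RPM. HAM2 and ARF10 were also lowest on average in preglobular embryos, at 1.38 and 1.16 RPM, and highest at late heart, at 9.40 and 7.52 RPM, but their preglobular ranges reached into those of later stages. TAS1C, TAS1A and TAS2 were lowest at bent cotyledon, at 2.93, 1.42 and 2.01 RPM, and highest at late heart or early torpedo. REV was at 0 in every library of preglobular embryos alone among the stages. At least 1 library was also at 0 at early heart, late heart, late torpedo, bent cotyledon and mature green. The REV means of the later stages ran from 0.0937 RPM at late torpedo to 1.16 RPM at early torpedo.

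**Figure D5:**
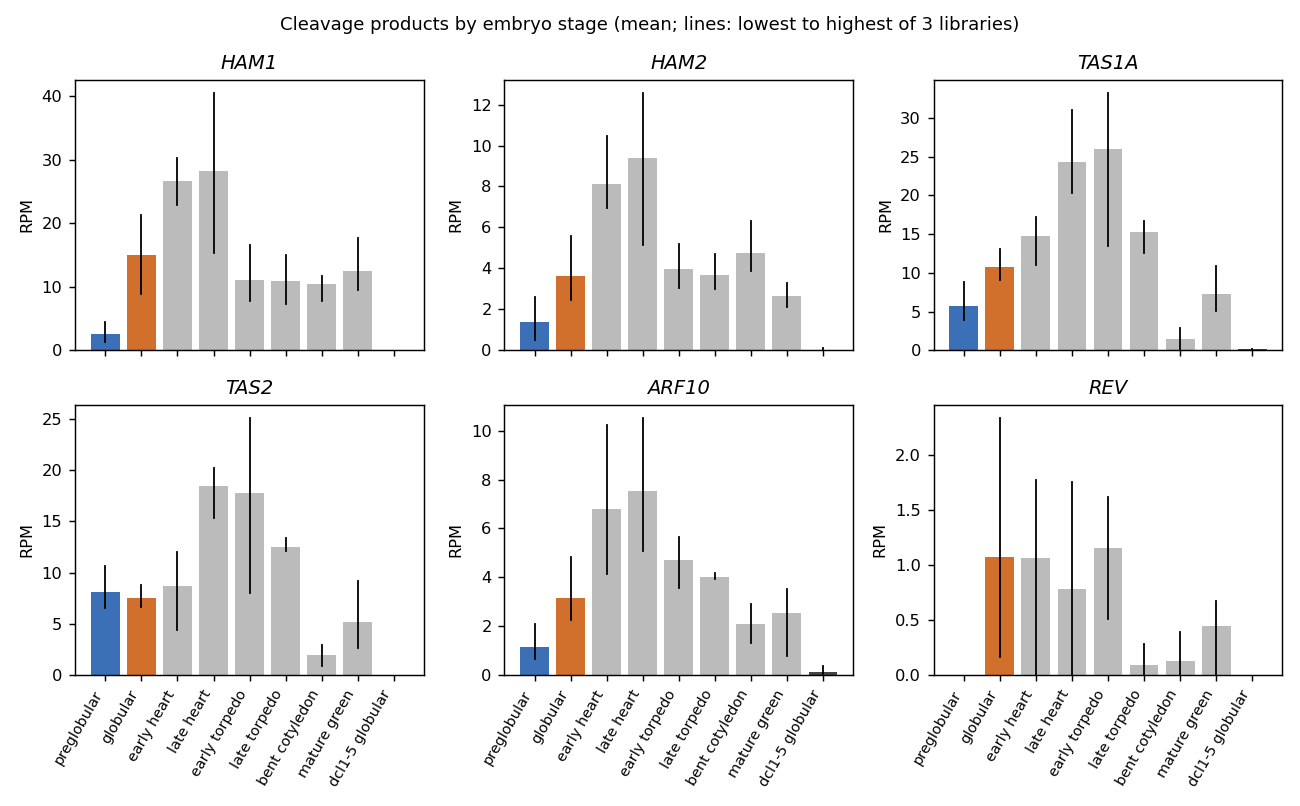
Mean cleavage products in RPM of 6 target genes at 8 wild-type embryo stages and in dcl1-5 globular embryos, with lines from the lowest to the highest of 3 libraries. HAM1 climbs from 2.58 RPM in preglobular (blue) to 14.996 RPM in globular embryos (orange), TAS2 stays at 8.16 and 7.57 RPM, and dcl1-5 is at or near 0 in every panel.

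Of the 10 genes with the highest mean, 3 (HAM1, TAS2 and ARF17) were at 0 in the 3 dcl1-5 libraries and the others had means of 0.0193 to 0.119 RPM there, below their means in both wild-type stages. The 10 genes together came to 0.758, 0.580 and 0.203 RPM in the mutant libraries. Of the 111 sites, 87 were listed in no dcl1-5 library. AT3G08943 and GLX1, whose sites were assigned to members of miR156/miR157, were listed in dcl1-5 replicate 1 alone, at 0.894 and 0.617 RPM. Their means were 0.317 and 0.470 RPM in wild-type preglobular and 0.395 and 0.0737 RPM in wild-type globular embryos. GRF1, assigned to miR396, had a mean of 0.185 RPM in dcl1-5, above its means of 0.0361 RPM in preglobular and 0.0613 RPM in globular embryos.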

How the data were processed

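nanoPARE libraries of wild-type Col-0 preglobular and globular embryos were compared, with 3 replicates a stage as numbered in the labels. The authors aligned reads to TAIR10, masked capped 5′ ends and ran EndCut for miRNAs present in embryos. The submitters' processing notes name cutadapt, STAR, bedtools and kallisto, without versions. The deposited site tables give RPM at the cut site, the Allen score and an EndCut p-value adjusted within the library by the authors, used here only as the authors' detection call. The deposited small RNA tables give, per mature miRNA, an estimated count in which the authors divided reads among loci, and RPM relative to genome-matching reads. From the estimated counts, only the depth (2050780 to 52374397 genome-matching reads) and the 3-read limits were taken, and those limits cover counting error only.

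Sites were kept at an Allen score of 4 or less, and unlisted sites were set to 0 RPM. The level of a gene was the sum over the sites of its transcript model with the highest mean. Features above 0 RPM in at least 2 of 6 libraries were tested on log2(RPM + 1) with limma 3.58.1 in R 4.3.3 (prior spread following the mean, Benjamini-Hochberg adjustment, threshold 0.05). Whole reads could not be recovered from the RPM values, so no count test was run. Single values were compared with exact permutation tests (scipy 1.17.1). Genes were named as the 10 with the highest mean, and up to 10 genes and 10 sites a direction past the threshold. Where fewer than 5 passed, the 5 without overlap and with the largest difference were named. Listed members of the miRNA target lists were named too, up to 30 by level. GLX1, AT3G08943, AT1G63130 and the pairs with equal values were named after their values were seen. The members and lists were chosen with earlier results of these data known. Sites were placed on RefSeq models of TAIR10.1 by pairing. The position in the files is 1 less than that of the base facing miRNA base 10 where the models have the same 5′ end. Alternatives covered the pseudocount, filters, score limit, scaling, prior, the libraries in the fit, a replicate block and each library left out. The other embryo stages were used for levels alone, and the seedling, input and mRNA libraries were not used here.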

Additional observations from a re-analysis of the deposited data

Results flagged for a closer look

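Sites with an Allen score above the limit lie outside the comparison, and 3 of them were listed in every globular library, in no preglobular library and in no dcl1-5 library. TAS3C, a tasiRNA precursor cut by miR390, had a score of 4.5 and stood at 0.645, 2.93 and 3.502 RPM in the globular libraries, a mean of 2.36 ± 1.51 RPM (SD, n = 3). TAS3A, with the same guide and score, stood at 0.780, 1.82 and 0.642 RPM, a mean of 1.08 ± 0.644 RPM (SD, n = 3). ATPD, the delta subunit of the chloroplast ATP synthase and assigned to miR159b-3p at a score of 5.5, stood at 1.41, 1.25 and 1.33 RPM, a mean of 1.33 ± 0.0794 RPM (SD, n = 3). Each was brought up by its level above that of the dcl1-5 libraries, where all 3 sites were listed at 0. In a fit with no limit on the score these 3 sites passed as higher in globular embryos. They entered that fit through their globular libraries alone, so they could only come out higher. Another site passed as lower. That site lies in AT1G08125, was assigned to miR390a-3p at a score of 5, and stood at 4.80, 7.07 and 5.63 RPM in the preglobular, 0.632, 2.84 and 1.499 RPM in the globular and 3.06, 0.454 and 0.466 RPM in the dcl1-5 libraries. The difference was -1.44 on the log2(RPM + 1) scale (SE 0.39, limma adjusted p = 0.0189 over 293 sites). No group held enough libraries to look for a library that stands apart.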

How the results depend on the processing

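HAM1 was higher in globular embryos under all 19 alternatives for genes, by 1.56 to 2.59 on the log2(RPM + 1) scale, and passed in 18 of them (adjusted p from 5.63e-06 to 0.0805). The number of sites that passed, 1, became 3 with a mean of at least 1 RPM required, 5 with no limit on the Allen score (4 higher and 1 lower) and 0 without a trend in the prior, and the number of genes, 1, became 3 (with ARF10 and HAM2), 5 and 0. Leaving out each library gave 0 to 4 sites and 1 to 3 genes. With the replicate block 4 sites and 3 genes passed, ARF10 (adjusted p = 0.0211) and AGO2 (0.0261) joining HAM1 among genes and TAS1A (0.0442) also among sites. Same-numbered libraries deviated together with r of -0.03, 0.10 and 0.16 across sites, with 1 of 3 preglobular libraries closest to its own number. These values showed no pairing across sites, but most sites are near 0 RPM, so they cannot settle whether the numbers pair the libraries. The summed level and HAM1 fell from replicate 1 to replicate 3 in both stages, whereas TAS2 fell in the preglobular and rose in the globular libraries. In a comparison by number the ratio of summed levels was 1.74 (exact permutation test, p = 0.25, the smallest for 3 pairs). TAS1C turned to -0.47 with libraries scaled to an equal sum, and with a library left out it ranged from -0.030 (without preglobular replicate 3) to 0.55. TAS2 ranged from -0.21 to 0.11 (without preglobular replicate 1). The ratio of summed levels stayed above 1. It ran from 1.47 to 1.96 with a library left out, and was 1.32 with no limit on the score, 3.48 with a score of 2 or less and 2.73 without the TAS genes. For families, 4 passed, against 2 with a pseudocount of 0.1 RPM, 6 with a minimum of 1 RPM, 1 with no minimum, 1 with the replicate block and 2 to 5 with a library left out. With an EndCut adjusted p under 0.01 the ratio of called sites was 1.26 (exact permutation test, p = 0.5). Of the 111 sites, 58 were listed in 1 library, where no difference could be resolved. The cause of these changes was not tested.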
